A study of Homo sapiens with 6 samples.

Results

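Enzymes that make, lengthen and desaturate fatty acids are described here through 10 genes, taken by symbol from the deposited count and FPKM tables. ACLY, ACACA and FASN make palmitate, and ACACB makes malonyl-CoA at the outer mitochondrial membrane. ELOVL5 and ELOVL6 lengthen fatty acids, and SCD, FADS1, FADS2 and FADS3 put in double bonds. Each of the 10 had 1 row among 60623 genes, and all 10 were among the 19173 genes kept by a filter on low counts. PLC/PRF/5 cells, a long-established line from a human hepatocellular carcinoma, were given a lentivirus and sequenced as 6 libraries. In 3 libraries the label names a ZFP64-overexpression lentiviral vector, which should raise the zinc finger transcription factor ZFP64; in the other 3 it names a control lentiviral vector, described as EV. All 6 share the line, the lentiviral delivery and the culture medium. The labels give no time after delivery and do not say whether the lines were clones or pools, or whether replicates were separate cultures, so the p-values speak only of the spread among these 6 samples, part or all of which may be technical.

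In the cytosol, ATP citrate lyase (ACLY) splits citrate into acetyl-CoA and oxaloacetate, acetyl-CoA carboxylase adds a carboxyl group to give malonyl-CoA, and fatty acid synthase (FASN) joins these units into palmitate. Palmitate is lengthened by ELOVL6 and desaturated by SCD to oleate and palmitoleate, while FADS2, ELOVL5 and FADS1 act in turn on essential fatty acids of the diet to give arachidonic and eicosapentaenoic acid. In liver cells many of these genes are known targets of SREBP-1c, the sterol-regulated factor encoded by SREBF1. Some are also targets of the liver X receptors or of the carbohydrate response factor ChREBP. Raised lipogenesis is a common feature of hepatocellular carcinoma.

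ZFP64 went against the labels, so each direction here is that of the ZFP64-OE-labelled libraries relative to the control-labelled ones, whatever their true identity. Its level was 35.0, 35.6 and 31.5 CPM in the ZFP64-OE-labelled libraries, against 142, 160 and 138 CPM in the control-labelled ones (counts per 1e6, over TMM-scaled library totals), 4.31-fold lower (edgeR adjusted p = 2.31e-12). Totals lay between 35109227 and 39739674 counts in the ZFP64-OE-labelled libraries and between 26468949 and 37466920 in the control-labelled ones. Hepatocyte genes were abundant, with a summed level of 10 markers of 16185 to 21815 CPM in the ZFP64-OE-labelled libraries and 13059 to 18449 CPM in the control-labelled ones, and among them TTR was near 0 (means of 0.0369 CPM in the ZFP64-OE-labelled libraries and 0.0825 CPM in the control-labelled ones). Of 9 hepatocyte markers tested 4 rose (AFP, APOB, ALB and FGB) and 2 fell (APOA1 and SERPINA1). Of the hepatocellular carcinoma markers both tested rose, GPC3 and AFP, which is on both lists, while EPCAM was under 1 CPM and not tested. The sum of the 3 was 693 to 842 CPM in the ZFP64-OE-labelled libraries and 487 to 630 CPM in the control-labelled ones. In the ZFP64-OE-labelled libraries, summed markers of other cells were at 0.506 to 0.668 CPM for 7 lymphocyte genes, 6.23 to 8.07 CPM for 7 fibroblast genes, 3.73 to 5.86 CPM for 5 endothelial genes, mostly PECAM1, and 3.49 to 4.73 CPM for 5 adipocyte genes. In the control-labelled ones the same sums were 0.510 to 0.910 CPM for lymphocyte, 9.37 to 10.8 CPM for fibroblast, 12.9 to 13.2 CPM for endothelial and 2.64 to 3.25 CPM for adipocyte genes. Sums over 9 macrophage genes were 320 to 388 CPM in the ZFP64-OE-labelled libraries and 521 to 573 CPM in the control-labelled ones, nearly all of it LYZ, which epithelial cells also make, while PTPRC, which defines leukocytes, had no count in any library; COL1A2, KDR, TEK and ADIPOQ had none either. The part of these shifts in the results below was not tested.

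Lipogenic transcripts covered a wide range of levels in these cells, with SCD far above the rest. On the deposited FPKM scale (counts per kilobase of gene length and per 1e6 counts), SCD was at 1015, 1152 and 911 in the ZFP64-OE-labelled libraries and at 1048, 1004 and 851 in the control-labelled ones. By mean FPKM it ranked 17 of 19930 protein-coding genes in the ZFP64-OE-labelled libraries and 14 in the control-labelled ones. SCD made up 73.5% to 75.4% of the summed FPKM of the 10 genes in the ZFP64-OE-labelled libraries and 72.7% to 74.8% in the control-labelled ones. FASN and ACLY followed, then ELOVL5, FADS1, ACACA, ELOVL6, ACACB, FADS3 and FADS2, and this order of mean levels was the same in both groups. Neighbours in the order had separate ranges of FPKM with 2 exceptions, both in the control-labelled libraries: FASN (97.5 to 114) overlapped ACLY (94.8 to 111), and ACACB (2.63 to 3.23) overlapped FADS3 (2.49 to 3.43). FADS2 stood last, at a mean of 0.940 ± 0.0486 FPKM in the ZFP64-OE-labelled libraries and 1.31 ± 0.105 FPKM in the control-labelled ones (SD, n = 3 each).

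**Figure D1:**
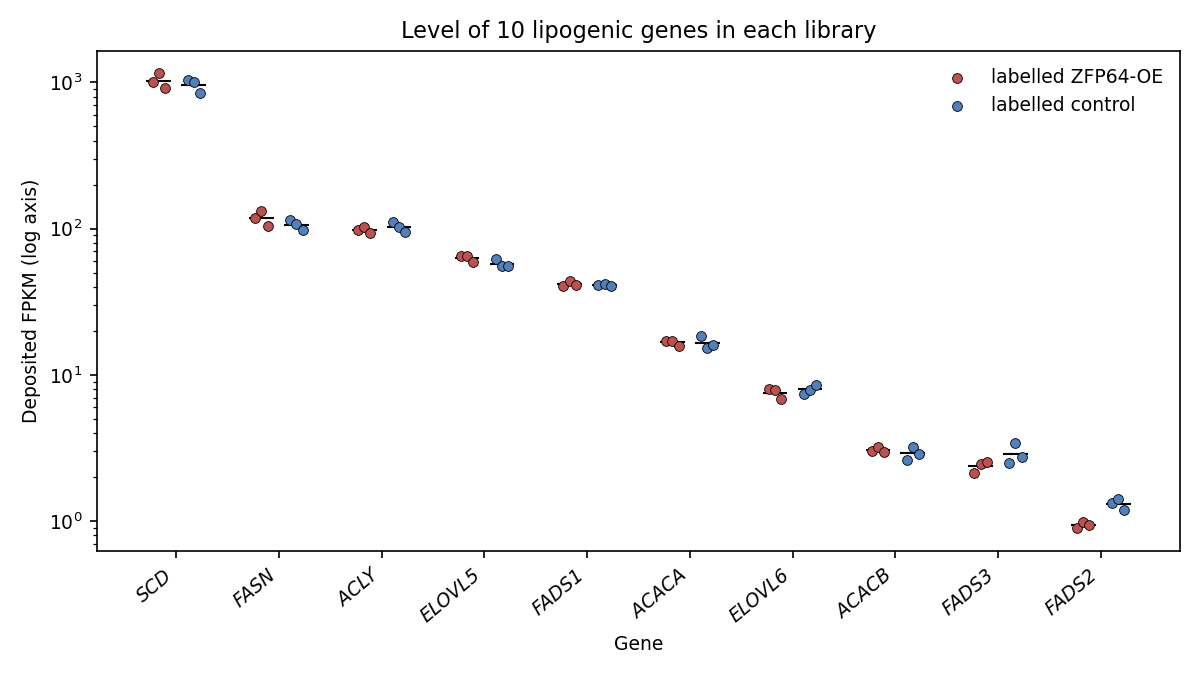
Deposited FPKM of the 10 genes on a log axis, 1 point per library, libraries labelled ZFP64-OE in red at the left of each pair and the control-labelled ones in blue, with the group mean as a bar. SCD lies at 851 to 1152 FPKM over both groups and FADS2, the lowest, is at 0.890 to 0.987 FPKM in the ZFP64-OE-labelled libraries, below 1.20 to 1.41 FPKM in the control-labelled ones.

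The question put to these genes was whether their transcripts differed between the groups, and for 9 of the 10 no difference passed the test. FADS2, the delta-6 desaturase, fell; no member rose. This is 1 call among 10 genes, against 5.81% called of all 19173 tested (4.03% called lower, 1.78% called higher), so the count is near the background. The test was edgeR's quasi-likelihood F-test over all kept genes at a Benjamini-Hochberg adjusted p of 0.05. The median log2 fold change of the 10 was 0.05, beside -0.02 over all genes tested, with 6 above 0 and 4 below. CPM values of the groups did not overlap for 2 members, FADS2 and FADS3, both lower, against 21.9% of all genes tested (9.17% not overlapping and higher, 12.8% not overlapping and lower). For the 9 members that did not pass, the 95% intervals of the fold difference reached no lower than 0.716 and no higher than 1.35.

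**Figure D2:**
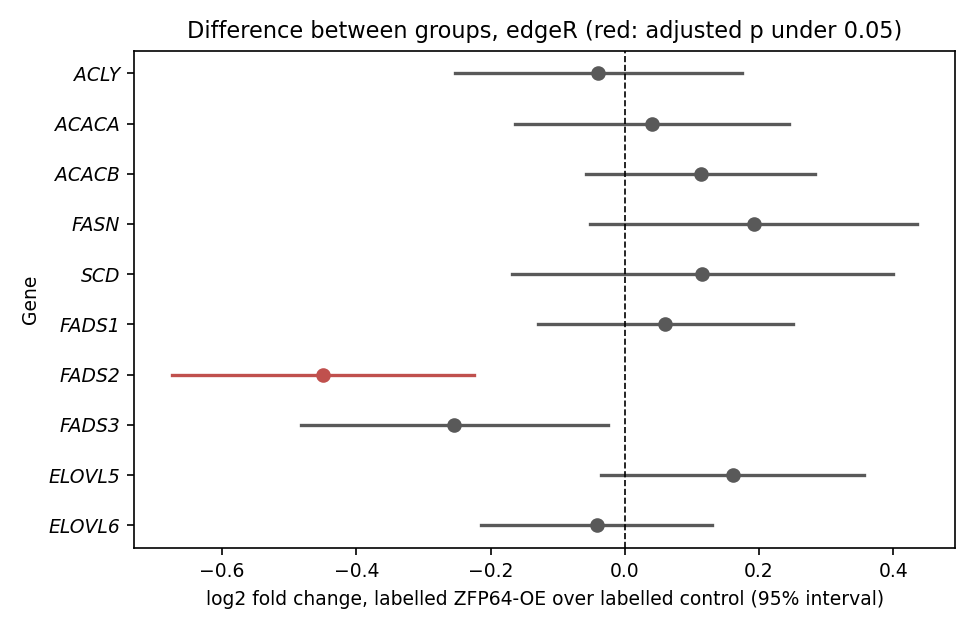
The log2 fold change of each gene, libraries labelled ZFP64-OE over the control-labelled ones, with its 95% interval from edgeR; red marks an adjusted p under 0.05. FADS2 at -0.45 is the gene in red, and the interval of FADS3 (-0.48 to -0.03) also lies below 0 although its adjusted p of 0.203 did not pass.

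None of the 3 genes for the enzymes that make acetyl-CoA or malonyl-CoA passed the test. ACLY (chromosome 17, 41866908 to 41930542, minus strand, GRCh38) was at 517, 548 and 486 CPM in the ZFP64-OE-labelled libraries and at 601, 521 and 471 CPM in the control-labelled ones. The control range enclosed the other, and the log2 fold change was -0.04 (standard error 0.102, 95% interval -0.25 to 0.17, edgeR adjusted p = 0.885). ACACA, the cytosolic carboxylase whose malonyl-CoA feeds FASN (chromosome 17, 37084988 to 37406818), was at 227, 227 and 205 CPM in the ZFP64-OE-labelled libraries and at 248, 193 and 199 CPM in the control-labelled ones. These ranges overlapped too, with a log2 fold change of 0.04 (95% interval -0.16 to 0.24). ACACB, the carboxylase on the outer mitochondrial membrane whose malonyl-CoA restrains fatty acid import, was at 44.9, 47.7 and 42.9 CPM in the ZFP64-OE-labelled libraries and at 39.6, 45.6 and 39.9 CPM in the control-labelled ones, and its log2 fold change of 0.11 did not pass (edgeR adjusted p = 0.494). Per length, ACACA stood above ACACB in every library, by a ratio of FPKM of 5.29 to 5.64 in the ZFP64-OE-labelled libraries and 4.72 to 6.98 in the control-labelled ones.

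FASN, the multidomain enzyme that builds palmitate (chromosome 17, 82078333 to 82098332, minus strand), was among the most abundant transcripts of the pathway. Its level was 1133, 1259 and 971 CPM in the ZFP64-OE-labelled libraries and 1101, 975 and 867 CPM in the control-labelled ones. Replicate 3 was the lowest library of each group, and the ranges overlapped. FASN had the largest positive log2 fold change of the 10 genes, 0.19 with a standard error of 0.117, and did not pass (95% interval -0.05 to 0.44, edgeR adjusted p = 0.399).

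SCD, the delta-9 desaturase that makes oleate and palmitoleate (chromosome 10, 100347124 to 100364834, plus strand), was likewise not told apart. It had 204050, 240062 and 167769 counts in the ZFP64-OE-labelled libraries and 145427, 197256 and 140478 in the control-labelled ones. Scaled, these were 5436, 6170 and 4746 CPM in the ZFP64-OE-labelled libraries and 5703, 5132 and 4262 CPM in the control-labelled ones. The ranges overlapped, replicate 3 was again the lowest of each group, and the log2 fold change was 0.12 (standard error 0.136, 95% interval -0.17 to 0.40, edgeR adjusted p = 0.713). Its processed pseudogene SCDP1, with which reads could be shared, was at 2.36 CPM in the ZFP64-OE-labelled libraries and 2.22 CPM in the control-labelled ones.

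The 3 FADS genes lie side by side on chromosome 11, and they differed from each other in level and in what the test found. FADS1, the delta-5 desaturase, was at 425, 462 and 417 CPM in the ZFP64-OE-labelled libraries and at 439, 415 and 396 CPM in the control-labelled ones. The ranges overlapped, with a log2 fold change of 0.06 (standard error 0.0909, 95% interval -0.13 to 0.25, edgeR adjusted p = 0.784). FADS2, whose delta-6 step opens the path to polyunsaturated fatty acids, had 360, 414 and 349 counts in the ZFP64-OE-labelled libraries and 373, 556 and 398 in the control-labelled ones. Scaled, FADS2 was at 9.59, 10.6 and 9.87 CPM in the ZFP64-OE-labelled libraries, against 14.6, 14.5 and 12.1 CPM in the control-labelled ones. The highest ZFP64-OE-labelled value lay under the lowest control-labelled value, and FADS2 fell by 0.45 on the log2 scale, a level 1.37-fold lower (standard error 0.108, 95% interval -0.68 to -0.23, edgeR adjusted p = 0.0145). The call was lost without ZFP64-OE-labelled replicate 1 (adjusted p = 0.0638) or control-labelled replicate 2 (adjusted p = 0.0923), and limma on log2(FPKM + 1) gave -0.25 and an adjusted p of 0.139. In bulk RNA, fewer cells with a transcript and less of it per cell cannot be told apart.

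FADS3, which desaturates sphingoid bases, was at 13.6, 15.8 and 15.8 CPM in the ZFP64-OE-labelled libraries and at 16.3, 21.0 and 16.4 CPM in the control-labelled ones. In CPM the groups just failed to meet, while in the deposited FPKM they overlapped, at 2.12, 2.45 and 2.53 in the ZFP64-OE-labelled libraries and 2.49, 3.43 and 2.74 in the control-labelled ones. Its log2 fold change of -0.25 (standard error 0.109) had an unadjusted p of 0.0310 and did not pass over all genes (edgeR adjusted p = 0.203). FADS1 and FADS2 have similar counted lengths, 10228 and 10553 bases, so dividing by length changes the ratio of their levels little. These lengths are near all their annotated exon bases (10230 and 11026) and need not be those of the transcripts made. FADS1 exceeded FADS2 by 45.7, 44.8 and 43.6 times in the ZFP64-OE-labelled libraries and by 30.9, 29.6 and 33.8 times in the control-labelled ones. The ratio was higher in 3 of 3 libraries labelled ZFP64-OE than in any labelled control, and its log2 value differed by 0.51. This comparison was chosen after the values were seen and restates the fall of FADS2 beside FADS1, so it adds no separate evidence. With the groups already seen apart, an exact permutation test could only give its smallest two-sided p for 3 against 3 libraries, 0.1.

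FADS1 (61799625 to 61829318, minus strand) lies within the span of FADS2 (61792980 to 61867354, plus strand) in GENCODE 29 on GRCh38, and 490 bases of their exons overlap on opposite strands; FADS2 also shares 49 exon bases with FEN1. With no strand setting given in the sources used here, reads of these stretches cannot be told apart. The level of FADS2, far below FADS1 and FEN1, and its ratio to FADS1 depend on how such reads were assigned, which was not tested. Stretches before the starts of the desaturase genes are shown because the strongest transcript of the pathway and the gene that was called are both desaturases. They come from RefSeq (GRCh38.p14), 5′ to 3′ on the strand of the gene, cut to the part outside annotated UTRs, with matches to CCAAT or GGGCGG on either strand in capitals: SCD at chr10:100346983-100347123, FADS1 at chr11:61817198-61817253, FADS2 at chr11:61816154-61816255 and FADS3 at chr11:61891546-61891795.
SCD: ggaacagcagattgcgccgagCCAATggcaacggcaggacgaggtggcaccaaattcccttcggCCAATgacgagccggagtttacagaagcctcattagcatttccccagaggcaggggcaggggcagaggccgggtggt
FADS1: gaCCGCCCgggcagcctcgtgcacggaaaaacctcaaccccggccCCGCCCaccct
FADS2: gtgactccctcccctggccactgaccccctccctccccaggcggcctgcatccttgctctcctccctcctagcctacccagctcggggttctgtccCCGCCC
FADS3: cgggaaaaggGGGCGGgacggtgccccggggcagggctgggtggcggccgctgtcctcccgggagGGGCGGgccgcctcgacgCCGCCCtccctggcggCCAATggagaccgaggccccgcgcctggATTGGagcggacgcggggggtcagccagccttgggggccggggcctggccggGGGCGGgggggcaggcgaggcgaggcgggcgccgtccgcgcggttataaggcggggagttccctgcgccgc

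In the 250 bases before a RefSeq start, 14 windows covered 9 of the 10 genes, FASN being the gene without an entry. The letters CCAAT (the box bound by NF-Y) or their complement stood in 8 of the 14 windows, those of 6 genes, and in 32.0% of 35116 such windows over all genes. SCD and FADS3 held 2 matches each, and the windows of FADS1 and FADS2 held none. The GC box GGGCGG was in 10 of the 14 windows (42.6% of all windows), the E-box CACGTG in 1, that of ELOVL5 (6.34%), and the sterol regulatory element TCACNCCAC in 0 (0.883%). The SCD window held 2 GC boxes, both outside the stretch shown. Several windows belong to 1 gene and partly overlap. Both strands were searched, and 0 matches of different motifs overlapped. A match here describes letters, and a window without one says nothing of a factor elsewhere: the FADS2 windows lie before starts at 61816203 and 61816404, whereas GENCODE also places FADS2 starts at 61827761 and 61828280.

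The elongases split in level but not in the test. ELOVL5, which lengthens polyunsaturated fatty acids (chromosome 6, 53267398 to 53349179, minus strand), was at 252, 254 and 226 CPM in the ZFP64-OE-labelled libraries and at 247, 207 and 201 CPM in the control-labelled ones. Control-labelled replicate 1 lay within the range of the ZFP64-OE-labelled libraries, and the log2 fold change of 0.16 (95% interval -0.04 to 0.36) did not pass (edgeR adjusted p = 0.379). ELOVL6, which takes palmitate to stearate (chromosome 4, 110045846 to 110199199, minus strand), was at 59.4, 58.6 and 49.4 CPM in the ZFP64-OE-labelled libraries and at 56.4, 56.4 and 59.4 CPM in the control-labelled ones. The ranges overlapped, with a log2 fold change of -0.04 (95% interval -0.21 to 0.13, edgeR adjusted p = 0.842). Per length, ELOVL5 exceeded ELOVL6 by 8.12 to 8.75 times in the ZFP64-OE-labelled libraries and 6.47 to 8.37 times in the control-labelled ones.

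Relative to the group mean, the 10 genes were spread unevenly over the libraries. In ZFP64-OE-labelled replicate 1, 6 of 10 lay above it, where 49.6% of all genes tested did. All 10 genes lay above their group mean in ZFP64-OE-labelled replicate 2, where 51.4% of all genes tested did, and 1 of 10 in ZFP64-OE-labelled replicate 3, where 51.3% did. Among the control-labelled libraries, 7 of 10 lay above the mean in replicate 1 (48.4% of all genes), 4 in replicate 2 (53.2%) and 1 in replicate 3 (48.1%). SCD ranged from -0.19 to 0.19 on the log2 scale around the mean of the ZFP64-OE-labelled libraries and from -0.23 to 0.19 around that of the control-labelled ones. FADS3 and ELOVL6 were the exceptions in the replicates numbered 3, FADS3 being above its mean in the library labelled ZFP64-OE and ELOVL6 in that labelled control. The summed FPKM of the 10 genes was 1368, 1528 and 1240 in the ZFP64-OE-labelled libraries and 1409, 1342 and 1171 in the control-labelled ones, so the groups overlapped.

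**Figure D3:**
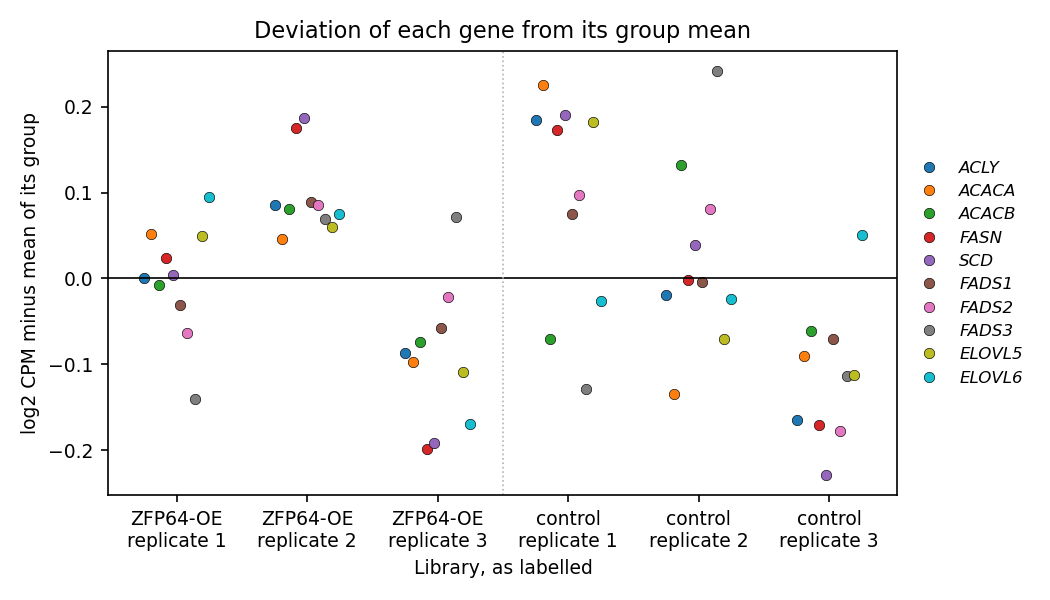
Deviation of each gene's log2 CPM from the mean of its group, by library, libraries labelled ZFP64-OE at the left and the control-labelled ones at the right, with a colour per gene. All 10 points are above 0 in ZFP64-OE-labelled replicate 2 and 9 of 10 are below 0 in replicate 3 of each group.

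Around the FADS cluster on 11q12, 2 of 11 listed neighbours fell, beside 4.03% called lower of all genes tested. All 11 were tested, 9 did not pass, and the median log2 fold change was -0.02. TMEM258, a subunit of the oligosaccharyltransferase complex, was at 21.8, 27.3 and 31.5 CPM in the ZFP64-OE-labelled libraries and at 32.7, 38.4 and 34.7 CPM in the control-labelled ones. The groups did not overlap, and the log2 fold change of -0.40 passed (edgeR adjusted p = 0.0420). The TMEM258 call did not hold with upper-quartile scaling (adjusted p = 0.0584), with a filter at a mean of 1 CPM (0.0617) and without ZFP64-OE-labelled replicate 1 or 2 (0.182 and 0.0975) or control-labelled replicate 2 or 3 (0.211 and 0.0748). SYT7, a calcium sensor of vesicle fusion, was at 20.4 ± 2.36 CPM in the ZFP64-OE-labelled libraries and 29.9 ± 5.66 CPM in the control-labelled ones (SD, n = 3 each; -0.56, edgeR adjusted p = 0.0136), a call lost without ZFP64-OE-labelled replicate 1 (0.0538) or control-labelled replicate 2 (0.0590). The count of neighbours that fell was 0 when one or the other of these libraries was left out and 3 without ZFP64-OE-labelled replicate 3 or control-labelled replicate 1. With limma on log2(FPKM + 1) and log2(FPKM + 0.1) the calls of TMEM258 (adjusted p = 0.205 and 0.195) and SYT7 (0.108 and 0.0997) were also lost. FEN1, a flap endonuclease that shares exon bases with FADS2, had a log2 fold change of -0.02 (95% interval -0.20 to 0.16). FTH1, the ferritin heavy chain, spread widely within groups, at 195 ± 117 CPM in the ZFP64-OE-labelled libraries and 400.1 ± 127 CPM in the control-labelled ones, and did not pass (adjusted p = 0.399).

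**Figure D4:**
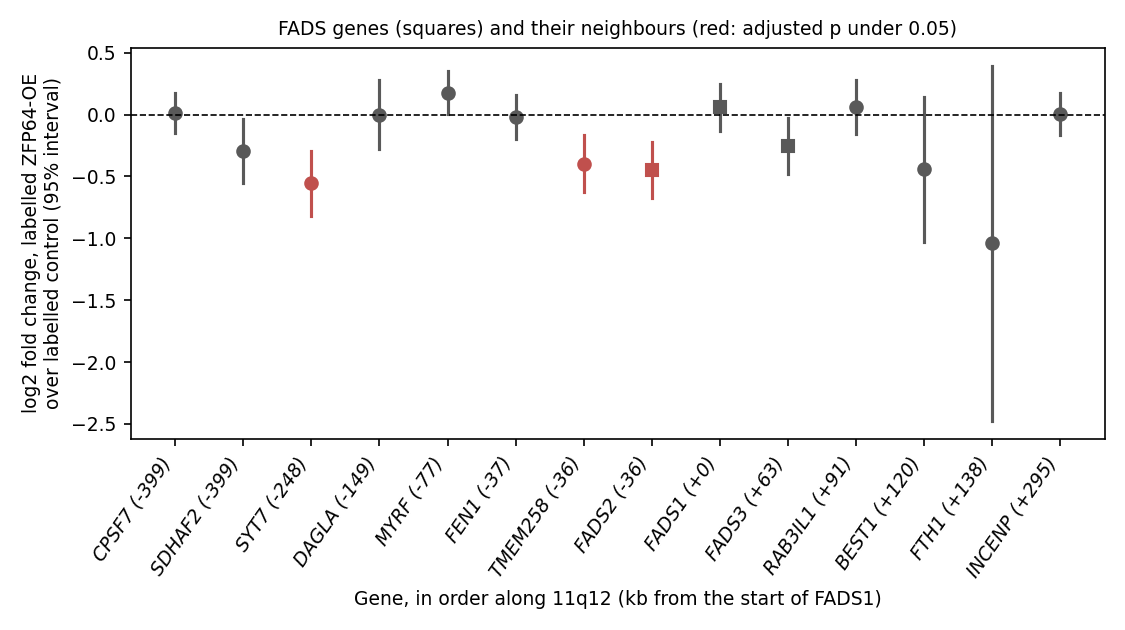
The log2 fold change, libraries labelled ZFP64-OE over the control-labelled ones, of the FADS genes (squares) and 11 neighbours (circles) in the order of their starts, given as kb from the start of FADS1, with 95% intervals; red marks an adjusted p under 0.05. SYT7, TMEM258 and FADS2 are in red, and FADS1, next to FADS2, is at 0.06.

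None of the listed drivers of lipogenic transcription passed the test, a count near the background of 5.81% called of all genes tested. Of 21 regulators tested, 0 passed in edgeR, 2 had an unadjusted p under 0.05 (INSIG1, and its relative INSIG2, which was not chosen by the rule for named genes), and the median log2 fold change was 0.02; DESeq2 also called 0, and 1 fell without control-labelled replicate 3. SREBF1 was at 110, 120 and 102 CPM in the ZFP64-OE-labelled libraries and at 118, 103 and 96.7 CPM in the control-labelled ones. The ranges overlapped (log2 fold change 0.07, 95% interval -0.12 to 0.25). INSIG1, which holds SREBP in the endoplasmic reticulum and is itself an SREBP target, was at 171, 181 and 162 CPM in the ZFP64-OE-labelled libraries and at 156, 155 and 134 CPM in the control-labelled ones. The INSIG1 groups did not overlap, and its log2 fold change of 0.21 did not pass (edgeR adjusted p = 0.186). MLXIPL, which encodes ChREBP, NR1H3, the liver X receptor alpha, and SCAP, the escort of SREBP, had log2 fold changes of 0.09, 0.02 and 0.01, with 95% intervals within -0.20 to 0.37.

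Calls were few among the other pathway genes, leaving out the members and the neighbours on 11q12. Of 133 such genes 124 were tested, of which 3 rose, 5 fell and 116 did not pass, 6.45% called beside 5.81% of all genes tested, with a median log2 fold change of 0.00868 beside -0.02. The lists were chosen with earlier results of these data known, so this share describes them and is no independent measure. The count was 3 to 12 with single libraries left out, lowest without ZFP64-OE-labelled replicate 2 and highest without ZFP64-OE-labelled replicate 3. ACSL5, an acyl-CoA synthetase that activates long-chain fatty acids, was at 7.38, 6.97 and 5.80 CPM in the ZFP64-OE-labelled libraries and at 14.1, 14.0 and 14.3 CPM in the control-labelled ones. ACSL5 was 2.10-fold lower (log2 fold change -1.07, standard error 0.113, edgeR adjusted p = 2.54e-06). PNPLA3, a lipid droplet protein and textbook target of SREBP-1c, was at 11.8, 12.4 and 9.87 CPM in the ZFP64-OE-labelled libraries and at 20.7, 23.5 and 21.3 CPM in the control-labelled ones. PNPLA3 was 1.92-fold lower (log2 fold change -0.94, standard error 0.103, edgeR adjusted p = 3.99e-06), and both falls passed under all 15 alternatives run.

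The lists nearest to the members held little else that passed. Of all genes tested 5.81% were called, so counts of 0 or 1 in lists this short are near the background. Of 11 genes of the other elongases and the elongation cycle 1 fell, ELOVL3, an elongase of very long chains (7.03 ± 0.817 CPM in the ZFP64-OE-labelled libraries, 9.50 ± 0.558 CPM in the control-labelled ones, SD, n = 3 each), and its call (edgeR adjusted p = 0.0384) was lost without any single library other than ZFP64-OE-labelled replicate 3 (highest adjusted p 0.193). The ELOVL3 call was also lost with limma on log2(FPKM + 1) (adjusted p = 0.0690) and on log2(FPKM + 0.1) (0.0650). Of the other desaturases and electron donors 0 of 7 passed in edgeR or DESeq2, with 1 at an unadjusted p under 0.05. SCD5, the second human stearoyl-CoA desaturase, had 10 counts over all 6 libraries and was not tested. In edgeR the lists of acetyl-CoA and citrate supply (12 tested), NADPH supply (9), biotin and carnitine steps (6) and mitochondrial fatty acid synthesis (10) held 0 calls, with medians of 0.03, 0.07, 0.05 and -0.06, and 2, 1, 0 and 0 genes had an unadjusted p under 0.05. DESeq2 called 1 rise on the list of acetyl-CoA and citrate supply and 0 genes on the other 3. Without ZFP64-OE-labelled replicate 3 the first list held 1 fall, and 1 rise when control-labelled replicate 1 was left out.

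Among genes that control acetyl-CoA carboxylase and FASN after translation, 2 of 17 rose, beside 1.78% called higher of all genes tested. Of the 17, 6 had an edgeR unadjusted p under 0.05. TRIB3, a pseudokinase reported to bring the ubiquitin ligase COP1 to acetyl-CoA carboxylase, was at 60.1 ± 6.08 CPM in the ZFP64-OE-labelled libraries and 47.0 ± 5.41 CPM in the control-labelled ones (log2 fold change 0.35, edgeR adjusted p = 0.0270; SD, n = 3 each), and its call was lost without ZFP64-OE-labelled replicate 2 (0.178) or control-labelled replicate 1 or 3 (0.0568 and 0.108). PRKAG2, a regulatory subunit of the AMP-activated kinase that inhibits the carboxylases, was at 70.0 ± 3.83 CPM in the ZFP64-OE-labelled libraries and 55.8 ± 0.904 CPM in the control-labelled ones (0.33, edgeR adjusted p = 0.0113), a call lost without ZFP64-OE-labelled replicate 1 or 2 (0.0526 and 0.0871). With limma on log2(FPKM + 1) and log2(FPKM + 0.1) the calls of TRIB3 (adjusted p = 0.196 and 0.189) and PRKAG2 (0.119 and 0.120) were also lost. On the list of acyl-CoA synthetases and thioesterases ACSL5 was the 1 call among 12 tested genes, beside 5.81% called of all genes tested. Of the 12, 4 had an edgeR unadjusted p under 0.05. On this list DESeq2 and limma-voom called 2 genes, and edgeR called 3 without ZFP64-OE-labelled replicate 3 or with no filter on low counts. Of 13 listed targets of SREBP-1c and ChREBP, ACACB among them, 2 fell, beside 4.03% called lower of all genes tested. Of the 13, 5 had an edgeR unadjusted p under 0.05. The 2 that fell were PNPLA3 and DGAT2, which makes triglyceride (6.15 ± 0.119 CPM in the ZFP64-OE-labelled libraries, 8.30 ± 0.297 CPM in the control-labelled ones). The DGAT2 call (edgeR adjusted p = 0.0310) was lost without ZFP64-OE-labelled replicate 1 or 2 (0.123 and 0.117) or control-labelled replicate 2 or 3 (0.136 and 0.0842). Limma on log2(FPKM + 1) and on log2(FPKM + 0.1) did not call DGAT2 either (adjusted p = 0.165 and 0.171).

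Of 8 tested users of polyunsaturated fatty acids, 1 fell and 1 rose, beside 4.03% called lower and 1.78% called higher of all genes tested. Of the 8, 5 had an edgeR unadjusted p under 0.05. PTGS1, the cyclooxygenase that turns arachidonic acid into prostaglandin H2, was low and fell by 1.86 on the log2 scale, at 0.687 ± 0.198 CPM in the ZFP64-OE-labelled libraries and 2.48 ± 0.777 CPM in the control-labelled ones (edgeR adjusted p = 0.000116; SD, n = 3 each). Its call was lost with limma on log2(FPKM + 1) (adjusted p = 0.0544). AGPAT3, an acyltransferase of phospholipid synthesis, was at 152 ± 7.85 CPM in the ZFP64-OE-labelled libraries and 125 ± 5.49 CPM in the control-labelled ones (0.28, edgeR adjusted p = 0.0410). The AGPAT3 call was lost without ZFP64-OE-labelled replicate 1 or 2 (0.193 and 0.176) or control-labelled replicate 2 or 3 (0.161 and 0.124). Limma on log2(FPKM + 1) and on log2(FPKM + 0.1) did not call AGPAT3 either (adjusted p = 0.0699 and 0.0686). On this list 3 genes rose without control-labelled replicate 1, 2 rose without ZFP64-OE-labelled replicate 3, and 2 fell without control-labelled replicate 3.

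**Figure D5:**
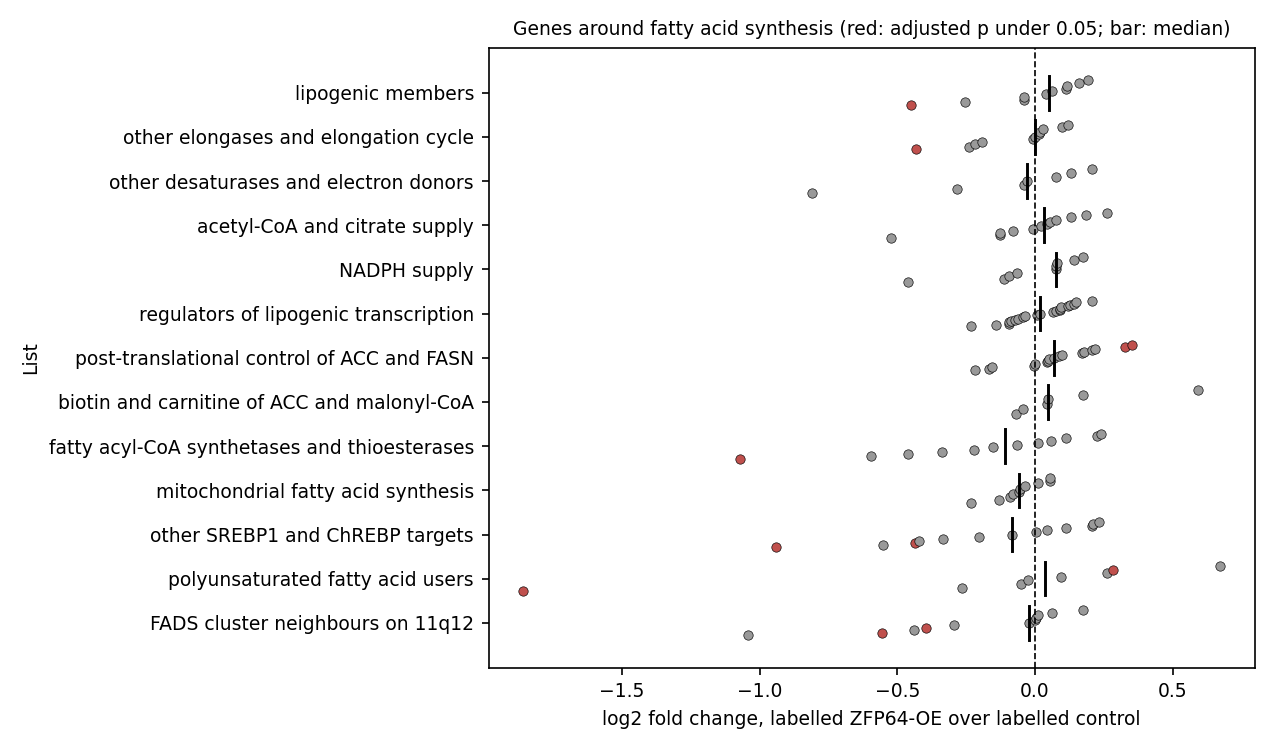
The log2 fold change of each tested gene, libraries labelled ZFP64-OE over the control-labelled ones, by list; red points had an adjusted p under 0.05 and the bar is the median of the list. Medians lie between -0.11 and 0.07, and the lowest red point is PTGS1 at -1.86.

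The genes whose pattern over the 6 libraries was nearest to that of FADS2 were SMO, ZNF395 and RFLNB. Nearness was the Euclidean distance between centred log2 CPM profiles over 10274 protein-coding genes averaging 5 CPM or more, and it was 0.0892, 0.0919 and 0.104. SMO was at 29.5 CPM in the ZFP64-OE-labelled libraries and 40.9 CPM in the control-labelled ones, and the log2 fold changes of the 3 genes were -0.47, -0.39 and -0.44. The distance includes the difference between groups, so fold changes near that of FADS2 follow from how these genes were chosen.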

How the data were processed

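RNA from 6 PLC/PRF/5 libraries, 3 labelled ZFP64-OE and 3 labelled control, was sequenced. The deposited tables give whole-number counts and FPKM per gene; the submitters' processing notes name HISAT2 and GRCh38, while the counting tool, the annotation and any strand setting were not given in the sources used here. For the 24388 genes counted in each of the 6 libraries, the deposited counts and FPKM implied the same whole-number gene length in each library (tolerances 1e-06, relative, and 0.001 bases).

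From the counts, genes were kept with filterByExpr (minimum count 10, minimum total 15), scaled by TMM (factors 0.963 to 1.05) and tested with edgeR 4.0.16 in R 4.3.3 (quasi-likelihood F-test, robust, group as the sole term; biological coefficient of variation 0.0857). P-values were adjusted by Benjamini-Hochberg over 19173 genes. Standard errors are the log2 fold change over the square root of F, and log2 CPM used a prior count of 2. Levels between genes were compared in FPKM, with no test. Alternatives were RLE and upper-quartile scaling, DESeq2 1.42.0, limma-voom (limma 3.58.1), no filter, a mean CPM of at least 1, limma on log2(FPKM + 1) and log2(FPKM + 0.1), a replicate block, and leaving out each library. On simulated counts for this comparison edgeR recovered 77% of genes changed 1.5-fold and 90% of those changed 2-fold, with 5 false calls over 19173 genes. For limma on FPKM the shares were 49% and 79%. Both sizes exceed the 1.37-fold of FADS2, so these shares do not speak to differences as small as those of the 10 genes. Libraries of a group differed by more than counting noise (chi-square per gene at least 11.8), so none was counted as a duplicate. Depth per library is 26468949 to 39739674 counts.

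The genes and lists were chosen with earlier results of these data known. Named are the 10 genes, ZFP64, SREBF1, MLXIPL, NR1H3, INSIG1 and SCAP, up to 3 called genes per list by smallest p, the 3 genes nearest to FADS2, and abundant or defining cell markers. Gene positions are from GENCODE 29 and promoter letters from RefSeq.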

Additional observations from a re-analysis of the deposited data

How the results depend on the processing

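All 10 genes were recomputed under 15 alternatives each. Of 150 log2 fold changes, 146 kept their side of the threshold. The 4 exceptions were all FADS2, at -0.25 (adjusted p = 0.139) and -0.44 (0.142) with limma on log2(FPKM + 1) and log2(FPKM + 0.1), -0.42 (0.0638) without ZFP64-OE-labelled replicate 1 and -0.41 (0.0923) without control-labelled replicate 2. FADS2 lay between -0.52 and -0.41 when single libraries were left out. The uncalled values of ACLY, ACACA and ELOVL6 changed sign under 2, 1 and 1 alternatives. Of the 10 genes 0 were called with either limma fit on FPKM, and 0 to 1 with a library left out.

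The count of all genes called, 1114 (342 higher, 772 lower), was 439 (113 and 326) with limma on log2(FPKM + 1), 470 (113 and 357) on log2(FPKM + 0.1), and 585 to 1486 with a library left out (162 to 569 higher, 423 to 993 lower). With no filter on low counts 518 genes were called higher. The 10 calls among all other listed genes, 8 in the pathway (3 higher, 5 lower) and 2 falls among the 11q12 neighbours, so 3 higher and 7 lower, were 2 (0 and 2) and 3 (0 and 3) with those limma fits and 4 to 15 with a library left out (0 to 6 higher, 3 to 11 lower). The difference in the log2 ratio of FADS1 over FADS2 stayed between 0.46 and 0.56 with a library left out, an alternative chosen after the data were seen. The cause was not tested.

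Same-numbered libraries correlated at 0.236, 0.0934 and 0.134 in their deviations from the group means (10971 genes), not all over 0.1. No library correlated best with its own number, so the numbers were not taken as pairs. ZFP64-OE-labelled replicates 1, 2 and 3 correlated best with control-labelled replicates 3, 1 and 2 (0.281, 0.382 and 0.481). With a replicate block edgeR called 2096 genes (749 higher, 1347 lower), 19 other listed genes (7 and 12), 17 of them in the pathway (7 and 10), and FADS2 at -0.45 (adjusted p = 0.000758). FADS2 had 349 to 556 counts a library, the fewest of the 10 genes in each of the 6.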
